A study of Rattus norvegicus with 24 samples.

Results

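The genes described here encode the machinery that relays a signal from G protein-coupled receptors to cyclic AMP: heterotrimeric G protein alpha, beta and gamma subunits, regulators of G protein signalling, adenylyl cyclases, arrestins and receptor kinases, cyclic nucleotide phosphodiesterases, subunits of protein kinase A and A-kinase anchoring proteins. The rule uses gene symbols alone and takes every probe whose annotated symbol belongs to these 9 families. The choice gave 103 genes on 108 probes, of 13336 genes on 13787 probes with an assigned gene and 22517 probes in all. Expression was measured in lumbar dorsal root ganglia (DRG), which hold the cell bodies of the sensory neurons of the hind limb with their glia, blood vessels and connective tissue. The animals were 24 Sprague-Dawley rats aged 3 months, 4 in each of 6 groups, and every rat had its own Illumina array. The study used males. Rats first received the chemotherapy agent vincristine, which induces a painful peripheral neuropathy, or saline, for 10 days, and then morphine, oxycodone or saline for 5 days. The groups are named vincristine-morphine, vincristine-oxycodone, vincristine-saline, saline-morphine, saline-oxycodone and saline-saline, and the 12 rats that never received vincristine are called control rats. The question behind the comparisons was which transcripts differ after repeated morphine and after repeated oxycodone, given at the same dose and for the same time, in neuropathic and in control rats.

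Opioid receptors and GABA-B receptors act through G proteins of the inhibitory class. The activated receptor makes the alpha subunit exchange GDP for GTP and release the beta-gamma dimer, the alpha subunit of the inhibitory class lowers the activity of adenylyl cyclases, and beta-gamma dimers act on potassium channels, calcium channels and phospholipase C. Regulators of G protein signalling speed up GTP hydrolysis and end the signal, receptor kinases and arrestins uncouple the receptor from its G protein, phosphodiesterases break down cyclic nucleotides, and anchoring proteins hold protein kinase A near its substrates. In nociceptive neurons this pathway is the route by which opioids reduce excitability, and changes in it after repeated opioid exposure are widely studied as part of tolerance. Morphine and oxycodone share the morphinan ring system, with an O-methyl group and a ketone among the changes that set oxycodone apart.

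Values are normalized log2 signals, so that a difference of 1 is a doubling of signal, and levels of different probes are not compared with each other. The number of arrays per group limits the precision. A probe was kept for testing if its detection p was at most 0.0005 on at least 4 of the 24 arrays. Each array detected between 6112 and 6907 of its probes, and 12 of the 13 probes for sensory neuron markers were kept, with array means from 11.63 to 11.87. On 5 arrays the mean over the kept skeletal muscle probes stood above 8.5: vincristine-morphine 1 (10.33) and 3 (10.16), vincristine-oxycodone 3 (8.81) and 4 (8.59) and saline-morphine 4 (10.68). The columns of the signal table form 4 neighbouring blocks of 6 arrays, 1 from each group, here called sets 1 to 4. A first principal component with 43.3% of the variance went almost wholly (99.4%) with these sets, of unknown nature in the sources used here.

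The CRE, the cyclic AMP response element to which CREB binds, offers one look at the members that the choice by name did not use, and the windows that hold it are shown here because their genes lie within the pathway that acts on it. RefSeq promoter windows on the GRCr8 assembly, 250 bases before to 50 bases after each annotated start, matched 80 of the 103 genes, 7 of them with more than 1 window. The full element TGACGTCA, which reads the same on both strands, stood in the windows of 2 of these 80 genes (2.5%), against 549 of 27457 genes on the assembly (2.0%). The shorter TGACG, searched on both strands and contained in the full element, stood in 21 of the 80 genes (26.2%), against 23% of all genes. The shares were thus close to those of all promoters, and a match says only that these letters lie in the window. Both genes with the full element had a probe that was kept: Akap17a, whose element begins 212 bases before its start on the minus strand of chr12:21428426-21428485, and Gnao1, whose element begins 121 bases before its start on the minus strand of chr19:11198525-11198584. The element is in capitals, 5′ to 3′.
Akap17a: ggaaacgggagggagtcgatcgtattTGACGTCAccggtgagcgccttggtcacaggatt
Gnao1: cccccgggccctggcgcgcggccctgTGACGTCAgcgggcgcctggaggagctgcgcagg
Among the 31 genes with both a window and a kept probe, the shorter letters also stood in the windows of Gnb5, Pde10a, Prkaca, Prkacb, Rgs2, Rgs3 and Rgs4, which with the former pair makes 9 genes (29.0%).

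Of the 108 probes, 39 were kept, each for a different gene. This share, 36.1%, compares with 39.9% of all 13787 probes with an assigned gene. The kept probes comprised 33 that were detected on all 24 arrays and 6 that were detected on some of them (Gna11 on 5, Grk2 on 13, Grk5 on 15, Rgs19 on 22, and Akap6 and Grk4 on 23). Of the 69 probes not kept, 66 were detected on no array, and Gnai1 on 2, Gng7 on 3 and Gng13 on 3. At a looser detection p of 0.05, only 21 of the 108 probes were detected on no array and 32 of those not kept were detected on at least 12, so a probe that was not kept gives no evidence that its gene was silent.

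Detection differed by family. Protein kinase A subunits were kept for 4 of 5 probes and regulators of G protein signalling for 9 of 17, while phosphodiesterases were kept for 5 of 24 and A-kinase anchoring proteins for 5 of 19. In between stood the alpha subunits with 5 of 15 probes, the beta subunits with 2 of 5, the gamma subunits with 2 of 6, the cyclases with 4 of 9, and the arrestins and receptor kinases with 3 of 8. Members without a kept probe included Gnas, the stimulatory alpha subunit, Gnaq, Gna12, both arrestins (Arrb1 and Arrb2), the cyclase Adcy5 and the regulatory subunit Prkar2a. Among the receptors at the head of the pathway, both subunits of the GABA-B receptor (Gabbr1 and Gabbr2) and the nociceptin receptor Oprl1 were detected on all 24 arrays, whereas the probes for the mu and delta opioid receptors (Oprm1 and Oprd1) were detected on none. Oprk1 had no probe assigned.

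**Figure D1:**
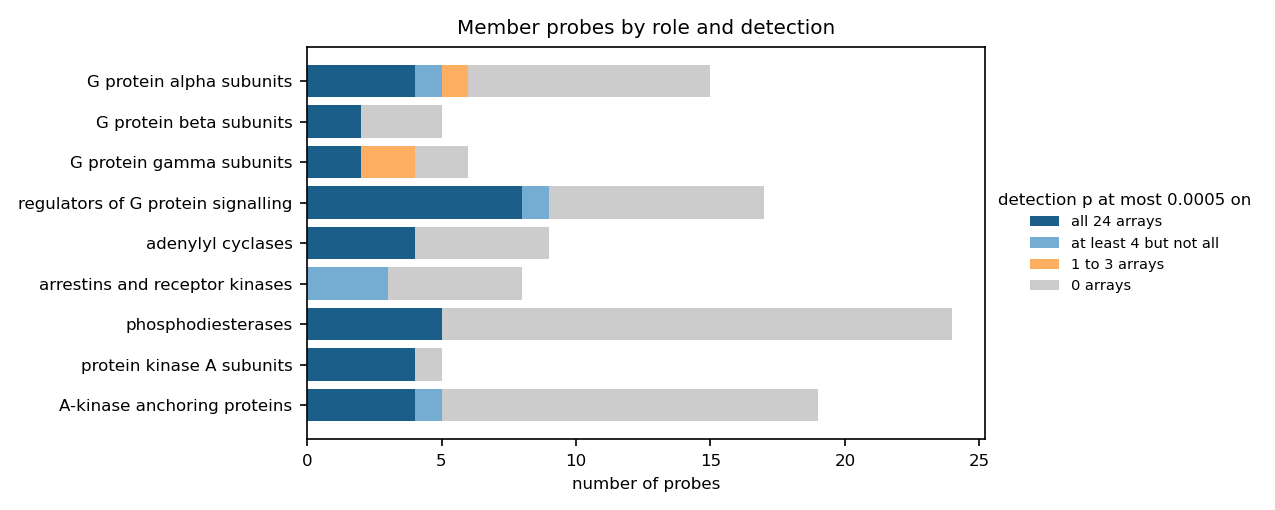
Number of member probes (horizontal axis) in each of the 9 families (vertical axis), coloured by the number of arrays on which the detection p was at most 0.0005. Of 108 probes, 33 were detected on all 24 arrays and 66 on none, and regulators of G protein signalling and protein kinase A subunits had the larger detected shares.

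No member passed the adjusted threshold in any comparison, under the design used or under any alternative tried. With p-values from limma adjusted by the Benjamini-Hochberg method over all 7043 kept probes, vincristine against control called 0 of 39 members, against 14 probes of the whole array (0.199%). Morphine against oxycodone called 0 of 39 in vincristine-treated rats, where 0% of all probes passed, and 0 of 39 in control rats, again with 0% of all probes. The interaction of vincristine with the choice of opioid called 0 of 39 (0% of all probes), and both opioids together against saline called 0 of 39 (0.114% of all probes). Each opioid against saline in each arm called 0 of 39, with 0% of all probes in all 4 comparisons.

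At an unadjusted p under 0.05, the members did not stand out from the array either. Vincristine against control gave 0 of 39 members (2.77% of all probes), morphine against oxycodone 0 of 39 in vincristine-treated rats (0.753%) and 0 of 39 in control rats (3.81%), and the interaction of vincristine and opioid 0 of 39 (2.98%). Opioids against saline gave 1 of 39 (2.9% of all probes), Pde9a. In vincristine-treated rats, morphine against saline gave 2 of 39 (1.82%), Gng11 and Pde9a, and oxycodone against saline 1 of 39 (1.65%), Gng11. In control rats, morphine against saline gave 2 of 39 (2.09%), Grk4 and Pde9a, and oxycodone against saline 0 of 39 (2.67%). Every one of these differences was lower after the opioid. Comparisons against saline within an arm share the 4 saline-treated rats of that arm, so the differences of both opioids from saline are not independent of each other.

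**Figure D2:**
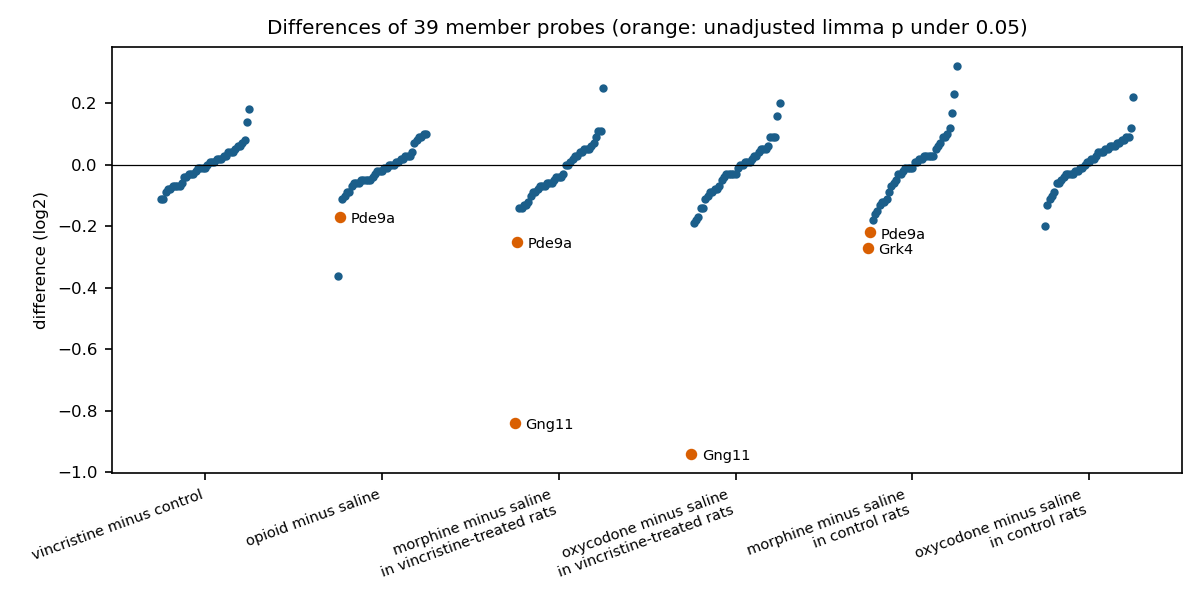
Difference between group means on the log2 scale (vertical axis) for the 39 kept member probes in 6 comparisons (horizontal axis), with points in order of size within each comparison and probes at an unadjusted limma p under 0.05 in orange. Most points lie close to 0, and Gng11 in vincristine-treated rats lies furthest below it, at -0.84 after morphine and -0.94 after oxycodone.

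The variance of the members went more with the sets than with the treatment. Over the 39 members the median share of variance that went with the set was 44.1%, against 13.1% with the treatment group, and over all kept probes the medians were 44.4% and 11.7%. The set accounted for more variance than the group in 33 of the 39 members, and for more than 50% in 18. Prkar2b, a regulatory subunit of protein kinase A of the RII type that is abundant in neurons, went with the set most closely (86.7%), followed by Gnaz (83.8%), and the set means of Prkar2b ran from 10.12 in set 1 to 9.57 in set 4. Gnai2 went with it least, at 0.551%, with set means of 12.22, 12.23, 12.23 and 12.23. Since every set holds 1 array of each group, the sets are balanced over the comparisons, and a model that includes the set is given below for each member that it brought under an unadjusted p of 0.05. At an unadjusted p under 0.05 this fit gave 4 of 39 members for vincristine against control (6.62% of all probes), 1 for morphine against oxycodone in vincristine-treated rats (2.64%) and 3 in control rats (10%), 3 for the interaction (8.77%) and 4 for opioids against saline (7%). Against saline it gave 2 for morphine (5.03%) and 2 for oxycodone (3.89%) in vincristine-treated rats, and 3 for morphine (5.57%) and 2 for oxycodone (7.28%) in control rats. After adjustment it gave 0 of 39 in every comparison, against 0.596% of all probes for vincristine against control and 0.312% for opioids against saline.

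**Figure D3:**
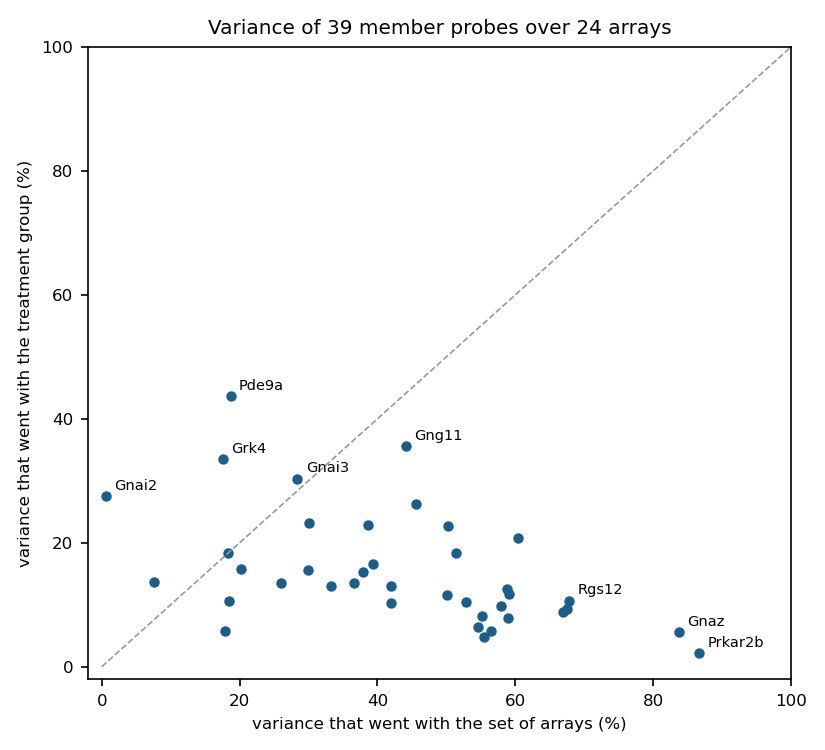
Share of a probe's variance over the 24 arrays that went with the treatment group (vertical axis, percent) against the share that went with the set of arrays (horizontal axis, percent), with 1 point for each of the 39 kept member probes and a dashed line of equal shares. Most points (33 of 39) lie below the line, and Pde9a (43.7% with the group), Grk4 and Gnai2 are among those above it.

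Gng11, a farnesylated gamma subunit that forms dimers with beta subunits, varied more than any other kept member, with a within-group SD of 0.513 against a median of 0.157 over the members. Gng11 read 8.07, 8.17, 7.69 and 8.89 in vincristine-morphine, 8.42, 7.65, 8.31 and 8.05 in vincristine-oxycodone, and 9.24, 8.94, 9.25 and 8.75 in vincristine-saline rats. Among control rats Gng11 read 9.10, 7.80, 8.95 and 8.10 in saline-morphine, 8.69, 7.86, 8.45 and 7.63 in saline-oxycodone, and 9.12, 7.54, 8.27 and 7.73 in saline-saline rats. The 4 vincristine-saline arrays were all at or above 8.75, higher than all 4 vincristine-oxycodone arrays and 3 of the 4 vincristine-morphine arrays, while in control rats the 3 groups overlapped and each held both high and low arrays. In each control group the arrays of sets 1 and 3 read higher than those of sets 2 and 4. Over all groups the set means of Gng11 were 8.86, 8.03, 8.57 and 7.99 in sets 1 to 4, and 44.1% of its variance went with the set. Group means were 9.04 ± 0.244 in vincristine-saline, 8.20 ± 0.503 in vincristine-morphine and 8.11 ± 0.344 in vincristine-oxycodone rats, and 8.16 ± 0.706, 8.49 ± 0.634 and 8.16 ± 0.497 in the saline-saline, saline-morphine and saline-oxycodone rats (SD, n = 4 each).

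In vincristine-treated rats Gng11 was 0.94 lower on the log2 scale after oxycodone than after saline (difference -0.94, SE 0.339, 95% interval -1.64 to -0.23; limma adjusted p = 1). The difference had an exact permutation p of 0.0286, two-sided, which is the smallest that 4 rats against 4 allow, and Gng11 was 1 of 39 members without overlap in this comparison (0.909% of all kept probes). After morphine the difference from saline was -0.84 (SE 0.339, 95% interval -1.55 to -0.13; limma adjusted p = 1; exact permutation p = 0.0571). Neither passed the adjusted threshold, and with the set in the model they still did not (limma adjusted p = 0.258 for oxycodone and limma adjusted p = 0.374 for morphine). Within sets, oxycodone minus saline was -0.52, -1.59, -0.95 and -0.70 in sets 1 to 4, and morphine minus saline was -0.05, -1.16, -1.09 and -1.06, so that all 4 sets were lower with either opioid but set 1 hardly at all with morphine.

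The vincristine-saline rats also differed from the saline-saline rats in Gng11, in a comparison that was added after these values had been seen. The difference was 0.88 (SE 0.339; limma p = 0.0168, adjusted p = 1; exact permutation p = 0.0857), and by set it was -0.18, 1.70, 0.99 and 1.02. The interaction, opioids against saline in vincristine-treated rats minus the same in control rats, was likewise added after the values had been seen, and was -1.05 (SE 0.415; limma adjusted p = 1). Both comparisons gave 1 of 39 members at an unadjusted p under 0.05, Gng11, against 1.77% and 0.909% of all probes (4.23% and 2.58% with the set in the model, again with 1 of 39), and 0 of 39 after adjustment, against 0.0284% and 0%. Over both arms together Gng11 was 0.36 lower after opioids, with a difference of -0.36 (SE 0.208; permutation p = 0.141, limma adjusted p = 1). By set this difference was -0.25, -0.54, -0.29 and -0.37, and its unadjusted limma p fell under 0.05 (adjusted p = 0.458) with the set in the model. Morphine against oxycodone did not pass the adjusted threshold for Gng11, with morphine minus oxycodone at 0.10 in vincristine-treated rats (95% interval -0.61 to 0.80) and 0.33 in control rats (-0.38 to 1.04).

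Signal from skeletal muscle genes was unevenly spread over these groups. The mean over the 8 kept of 13 muscle probes ranged from 6.77 to 10.33 in vincristine-morphine, 6.87 to 8.81 in vincristine-oxycodone and 6.76 to 8.11 in vincristine-saline rats, with ranges of 6.68 to 10.68, 6.35 to 6.96 and 6.59 to 7.33 in saline-morphine, saline-oxycodone and saline-saline rats. One of the listed genes, Pvalb, is also expressed by sensory neurons, and Mylpf, Tnnt1, Myh4, Myh2, Myh1, Atp2a1, Mb, Casq1, Ttn and Myoz1 had no kept probe. Without the 5 arrays above 8.5, morphine minus saline in vincristine-treated rats was -0.52 for Gng11 and its unadjusted limma p no longer reached 0.05, oxycodone minus saline was -1.01 and still reached it, and the interaction was -0.99 and did not. This omission also left fewer rats in the vincristine-morphine, vincristine-oxycodone and saline-morphine groups, and the part of that in the lost thresholds was not tested. Red blood cell genes went with vincristine instead: the mean over the 7 kept of 10 probes ranged from 10.48 to 11.83 over the 3 vincristine groups and from 8.41 to 9.70 over the 3 control groups, with no kept probe for Hba-a2, Alas2 and Slc4a1, and the part of red cells in any difference between the arms was not tested. Fibroblast genes, kept for 7 of 7 probes, were lower after morphine than after saline in vincristine-treated rats for 7 of 7 probes (median -0.21) and lower after oxycodone for 6 of 7 (median -0.11). Their mean ranged from 10.34 to 11.08 in vincristine-morphine, 10.69 to 11.02 in vincristine-oxycodone and 10.59 to 11.08 in vincristine-saline rats. Macrophage genes, kept for 5 of 8 probes and with no kept probe for Cd68, Cd163, Csf1r, Ptprc, Itgam and Lyz2, were lower for 5 of 5 after morphine (median -0.15) and for 2 of 5 after oxycodone, with ranges of 7.65 to 8.01, 7.69 to 8.15 and 7.77 to 8.02 in the same groups. Satellite glia genes were higher after morphine for 4 of 4 kept probes (median 0.11) and adipocyte genes for 3 of 3 (median 0.28). After oxycodone they were higher for 1 of 4 (median -0.004) and 2 of 3 (median 0.011). Sensory neuron genes split 6 and 6 after morphine, and only 1 of 6 endothelial and mural probes was kept. The part of muscle, fibroblast, macrophage or these other signals in the differences of Gng11 was not tested beyond the values given. In bulk tissue, fewer cells that express a gene and less RNA per cell cannot be told apart.

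The 250 bases before the annotated start of Gng11, chr4:32977431-32977680 on the plus strand of GRCr8, are shown because this member varied most and because the window holds a dinucleotide run, in capitals, that begins 136 bases before the start.
Gng11: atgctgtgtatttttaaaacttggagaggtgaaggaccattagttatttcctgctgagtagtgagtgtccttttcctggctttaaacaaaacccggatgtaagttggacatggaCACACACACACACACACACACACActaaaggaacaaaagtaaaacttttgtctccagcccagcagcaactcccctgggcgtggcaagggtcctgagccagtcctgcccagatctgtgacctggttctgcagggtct
The run holds 12 copies of CA. A run of at least 8 copies on either strand (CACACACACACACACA or its reverse complement) stood in the window of 1 of the 80 matched members, Gng11, and in 112 of all 27457 genes (0.408%). The search for this run was chosen after the window had been read, and the run is given as a description of the sequence.

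The other kept gamma subunit, Gng10, ranged from 9.25 to 9.98 over the 24 arrays, with group means at most 0.14 apart. Gnb1, a beta subunit found in most tissues, read 12.55, 12.47, 12.08 and 12.55 in vincristine-morphine, 12.72, 12.49, 12.44 and 12.59 in vincristine-oxycodone, and 12.39, 12.49, 12.47 and 12.52 in vincristine-saline rats. Among control rats Gnb1 read 12.54, 12.45, 12.50 and 12.47 in saline-morphine, 12.61, 12.64, 12.38 and 12.45 in saline-oxycodone, and 12.52, 12.39, 12.36 and 12.56 in saline-saline rats. All but 1 of the 24 arrays lay between 12.36 and 12.72, and vincristine-morphine 3, one of the arrays high in muscle genes, stood lowest at 12.08. Morphine minus oxycodone was -0.15 (SE 0.092; exact permutation p = 0.343, limma adjusted p = 1) in vincristine-treated rats.

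Gnb5, a neuronal beta subunit that pairs with regulators of the R7 class such as Rgs7, read 8.17, 8.27, 7.92 and 7.87 in vincristine-morphine, 8.06, 8.18, 7.87 and 8.06 in vincristine-oxycodone, and 8.42, 7.75, 8.16 and 8.17 in vincristine-saline rats. Among control rats Gnb5 read 7.98, 8.03, 7.78 and 8.18 in saline-morphine, 7.58, 8.16, 7.90 and 7.99 in saline-oxycodone, and 7.86, 8.11, 7.65 and 7.99 in saline-saline rats. The arms overlapped, with the highest value in a vincristine-saline rat and the lowest in a saline-oxycodone rat. Vincristine minus control was 0.14 (SE 0.0817; permutation p = 0.086, limma adjusted p = 1), and its unadjusted limma p fell under 0.05 (adjusted p = 0.72) with the set in the model. Its partner Rgs7 held the narrowest group means among the regulators, at most 0.06 apart, over a range from 10.43 to 10.76.

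Among the alpha subunits, Gnai2 and Gnai3 belong to the inhibitory class that opioid and GABA-B receptors engage. Gnai3 read 10.31, 10.12, 10.21 and 10.13 in vincristine-morphine, 10.20, 10.26, 10.16 and 10.25 in vincristine-oxycodone, and 10.29, 10.42, 10.25 and 10.19 in vincristine-saline rats. Among control rats Gnai3 read 10.42, 10.36, 10.20 and 10.22 in saline-morphine, 10.30, 10.36, 10.20 and 10.34 in saline-oxycodone, and 10.33, 10.30, 10.29 and 10.34 in saline-saline rats. The lowest values, at 10.12 and 10.13, were vincristine-morphine rats, the highest, at 10.42, a vincristine-saline and a saline-morphine rat, and the arms overlapped. Vincristine minus control was -0.07 (SE 0.038; permutation p = 0.0352, limma adjusted p = 1), over 12 against 12 rats, and its unadjusted limma p fell under 0.05 (adjusted p = 0.702) with the set in the model. The sets gave -0.09, -0.05, -0.05 and -0.08, all lower with vincristine.

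Gnai2 read 12.24, 12.36, 12.14 and 12.23 in vincristine-morphine, 12.19, 12.21, 12.18 and 12.13 in vincristine-oxycodone, and 12.29, 12.18, 12.17 and 12.20 in vincristine-saline rats. Among control rats Gnai2 read 12.20, 12.16, 12.19 and 12.21 in saline-morphine, 12.16, 12.25, 12.32 and 12.50 in saline-oxycodone, and 12.33, 12.22, 12.13 and 12.21 in saline-saline rats. The values stayed within 12.13 to 12.50, and the highest was a saline-oxycodone rat. Morphine minus oxycodone was -0.12 (SE 0.0671; exact permutation p = 0.143, limma adjusted p = 1) in control rats and 0.06 (SE 0.0671; exact permutation p = 0.257, limma adjusted p = 1) in vincristine-treated rats, with an interaction of 0.18 (SE 0.0949; limma adjusted p = 1).

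Gna11, an alpha subunit that activates phospholipase C, lay near the detection limit. Gna11 read 6.13, 5.89, 6.34 and 6.26 in vincristine-morphine, 6.20, 6.21, 6.36 and 6.51 in vincristine-oxycodone, and 6.08, 6.15, 6.39 and 6.51 in vincristine-saline rats. Among control rats Gna11 read 6.13, 6.05, 6.24 and 6.36 in saline-morphine, 5.97, 6.15, 6.04 and 6.31 in saline-oxycodone, and 6.28, 6.10, 6.32 and 6.57 in saline-saline rats. The probe was detected on 5 arrays, and the highest value of every group was in set 4. Oxycodone minus saline in control rats was -0.20 (SE 0.12; exact permutation p = 0.171, limma adjusted p = 1), and its unadjusted limma p fell under 0.05 (adjusted p = 0.623) with the set in the model. Over both arms opioids minus saline was -0.10 (SE 0.0735; permutation p = 0.17, limma adjusted p = 1), at -0.08, 0.05, -0.23 and -0.16 by set, and its unadjusted limma p fell under 0.05 (adjusted p = 0.697) in the same model. Morphine minus oxycodone in vincristine-treated rats was -0.17 (SE 0.12; exact permutation p = 0.257, limma adjusted p = 1), lower in 3 of 4 sets, and its unadjusted limma p fell under 0.05 (adjusted p = 1) in that model. The interaction of vincristine and opioid was -0.25 (SE 0.17; limma adjusted p = 1), also lower in 3 of 4 sets, and its unadjusted limma p fell under 0.05 (adjusted p = 0.554) once the set was included. Every one of these rests on a probe detected on only 5 arrays. Gnao1, the alpha subunit abundant in neurons whose promoter window is shown above, ranged from 12.31 to 12.78 with group means at most 0.15 apart, and Gnaz, an inhibitory-class subunit resistant to pertussis toxin, from 10.27 to 10.71 with group means at most 0.10 apart.

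Of the 9 kept regulators of G protein signalling, 6 were higher and 3 lower with vincristine (median 0.014, against -0.00089 over all kept probes), or 5 higher and 4 lower after median centring. Rgs3, a regulator that acts on the inhibitory and the phospholipase C-coupled classes, read 11.77, 11.68, 11.68 and 11.58 in vincristine-morphine, 11.51, 11.79, 11.59 and 11.73 in vincristine-oxycodone, and 11.64, 11.51, 11.69 and 11.78 in vincristine-saline rats. Among control rats Rgs3 read 11.64, 11.87, 11.67 and 11.75 in saline-morphine, 11.59, 11.82, 11.87 and 12.17 in saline-oxycodone, and 11.64, 11.87, 11.66 and 11.79 in saline-saline rats. The highest value was a saline-oxycodone rat, with 11.87 as the next highest, and the arms overlapped. Vincristine minus control was -0.11 (SE 0.0572; permutation p = 0.0404, limma adjusted p = 1), and its unadjusted limma p fell under 0.05 (adjusted p = 0.476) with the set in the model. All 4 sets were lower with vincristine, at -0.09, -0.12, -0.08 and -0.17.

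Rgs4, an abundant neuronal regulator known to dampen opioid receptor signalling, read 13.07, 13.07, 13.32 and 13.10 in vincristine-morphine, 12.94, 13.47, 13.19 and 13.40 in vincristine-oxycodone, and 13.14, 13.11, 13.27 and 13.40 in vincristine-saline rats. Among control rats Rgs4 read 13.19, 13.23, 13.30 and 13.44 in saline-morphine, 13.11, 13.31, 13.28 and 13.47 in saline-oxycodone, and 13.20, 13.30, 13.10 and 13.43 in saline-saline rats. Set 1 read low and set 4 high, with set means of 13.11 and 13.41, and vincristine minus control was -0.07 (SE 0.0631; permutation p = 0.215, limma adjusted p = 1). Rgs2, which acts chiefly on the phospholipase C-coupled class and is itself induced by cyclic AMP in many cells, read 9.85, 9.51, 9.86 and 9.50 in vincristine-morphine, 9.62, 9.79, 9.66 and 9.71 in vincristine-oxycodone, and 9.71, 9.57, 9.51 and 9.64 in vincristine-saline rats. Among control rats Rgs2 read 9.51, 9.97, 9.87 and 9.65 in saline-morphine, 9.67, 9.78, 9.73 and 9.44 in saline-oxycodone, and 9.42, 9.52, 9.73 and 9.65 in saline-saline rats. Its highest values were those of 2 saline-morphine rats, yet the groups overlapped, and morphine minus saline in control rats was 0.17 (SE 0.108; exact permutation p = 0.286, limma adjusted p = 1).

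Rgs12, a large regulator with further signalling domains, read 7.16, 6.89, 7.27 and 6.90 in vincristine-morphine, 7.11, 7.09, 6.92 and 7.37 in vincristine-oxycodone, and 7.13, 6.97, 7.06 and 7.23 in vincristine-saline rats. Among control rats Rgs12 read 6.74, 6.94, 6.97 and 7.16 in saline-morphine, 6.84, 7.22, 6.96 and 7.29 in saline-oxycodone, and 6.89, 7.43, 6.91 and 7.30 in saline-saline rats. Sets 2 and 4 read high in both arms, with set means of 7.16 and 7.27 against 6.91 and 6.95 in sets 1 and 3. Morphine minus saline in control rats was -0.18 (SE 0.136; exact permutation p = 0.314, limma adjusted p = 1), and its unadjusted limma p fell under 0.05 (adjusted p = 0.85) with the set in the model. Rgs17, a regulator of the RZ class that acts on Gnaz and is known to restrain opioid receptor signalling, read 6.83, 6.78, 6.84 and 6.66 in vincristine-morphine, 6.72, 6.90, 6.64 and 6.90 in vincristine-oxycodone, and 6.98, 6.90, 6.59 and 6.64 in vincristine-saline rats. Among control rats Rgs17 read 6.84, 6.65, 6.72 and 6.39 in saline-morphine, 6.49, 6.82, 6.61 and 6.91 in saline-oxycodone, and 6.77, 6.64, 6.83 and 6.98 in saline-saline rats. The groups overlapped, and morphine minus saline in control rats was -0.16 (SE 0.113; exact permutation p = 0.286, limma adjusted p = 1). Rgs10 ranged from 10.91 to 11.47, Rgs14 from 7.55 to 8.17 and Rgs19 from 6.42 to 7.17, with group means at most 0.13, 0.12 and 0.18 apart.

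Of the 9 adenylyl cyclases, 4 were kept, and with opioids against saline 3 were higher and 1 lower (median 0.019, against -0.0024 over all kept probes), or 2 and 2 after median centring. Adcy3, a cyclase known from olfactory neurons and primary cilia, read 7.85, 7.96, 7.81 and 7.75 in vincristine-morphine, 7.65, 7.75, 7.82 and 7.88 in vincristine-oxycodone, and 7.73, 7.77, 7.83 and 7.86 in vincristine-saline rats. Among control rats Adcy3 read 7.65, 7.80, 7.75 and 7.84 in saline-morphine, 7.82, 7.96, 7.74 and 8.07 in saline-oxycodone, and 7.76, 7.96, 7.83 and 7.79 in saline-saline rats. Morphine minus oxycodone was -0.14 (SE 0.0759; exact permutation p = 0.2, limma adjusted p = 1) in control rats and 0.07 (SE 0.0759; exact permutation p = 0.4, limma adjusted p = 1) in vincristine-treated rats, and the interaction was 0.20 (SE 0.107; limma adjusted p = 1). By set the interaction was 0.27, 0.26, 0.13 and 0.16, higher in all 4 sets, and its unadjusted limma p fell under 0.05 (adjusted p = 0.547) with the set in the model. In that model the difference in control rats was lower in 3 of 4 sets, and its unadjusted limma p fell under 0.05 (adjusted p = 0.492).

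Adcy8, a cyclase stimulated by calcium and calmodulin, read 7.19, 7.31, 7.12 and 7.18 in vincristine-morphine, 7.0, 7.27, 7.38 and 7.13 in vincristine-oxycodone, and 7.25, 7.05, 7.26 and 7.0 in vincristine-saline rats. Among control rats Adcy8 read 7.17, 7.19, 7.28 and 7.26 in saline-morphine, 7.31, 7.25, 7.31 and 7.28 in saline-oxycodone, and 7.19, 7.26, 7.29 and 7.22 in saline-saline rats. No control rat stood below 7.17, whereas the lowest values of each vincristine group did. Vincristine minus control was -0.07 (SE 0.0436; permutation p = 0.0613, limma adjusted p = 1), and its unadjusted limma p fell under 0.05 (adjusted p = 0.722) with the set in the model. By set this difference was -0.15, 0.00, 0.02 and -0.17, lower in sets 1 and 4 and near 0 in sets 2 and 3. Adcy4, a cyclase that beta-gamma dimers can enhance, read 6.89, 6.83, 6.86 and 7.03 in vincristine-morphine, 7.02, 6.82, 7.18 and 6.77 in vincristine-oxycodone, and 6.84, 6.80, 6.78 and 6.73 in vincristine-saline rats. Among control rats Adcy4 read 7.01, 6.90, 6.98 and 6.77 in saline-morphine, 6.89, 6.98, 7.02 and 6.75 in saline-oxycodone, and 6.79, 7.06, 7.06 and 6.50 in saline-saline rats. Set 4 read low, with a set mean of 6.73 against 6.91 to 6.98 in the others, and opioids minus saline was 0.10 (SE 0.0665; permutation p = 0.122, limma adjusted p = 1). Adcy2, also enhanced by beta-gamma dimers, ranged from 8.61 to 9.04 with group means at most 0.10 apart.

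Among the arrestins and receptor kinases no probe was detected on all 24 arrays, and the 3 kept probes were receptor kinases. Grk4 read 6.73, 6.49, 6.95 and 6.68 in vincristine-morphine, 6.66, 6.96, 6.94 and 7.03 in vincristine-oxycodone, and 6.86, 6.90, 6.87 and 6.77 in vincristine-saline rats. Among control rats Grk4 read 6.60, 6.87, 6.75 and 6.41 in saline-morphine, 6.58, 6.88, 6.91 and 6.97 in saline-oxycodone, and 6.80, 7.07, 6.95 and 6.89 in saline-saline rats. The 4 saline-morphine arrays included the lowest value of all, 6.41 in an array high in muscle genes, and only saline-morphine 2, at 6.87, reached into the range of the saline-saline arrays. Morphine minus saline in control rats was -0.27 (SE 0.111; limma p = 0.0255, adjusted p = 1; exact permutation p = 0.0571), at -0.19, -0.19, -0.20 and -0.48 in sets 1 to 4. With the arrays high in muscle genes left out, the difference was -0.18 and no longer reached an unadjusted limma p of 0.05. In vincristine-treated rats the same difference was -0.14 (SE 0.111; exact permutation p = 0.2, limma adjusted p = 1).

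Grk2, the receptor kinase chiefly linked to opioid receptor desensitization, read 6.55, 6.52, 6.75 and 5.94 in vincristine-morphine, 6.22, 6.56, 6.35 and 6.55 in vincristine-oxycodone, and 6.77, 6.49, 6.41 and 6.59 in vincristine-saline rats. Among control rats Grk2 read 6.51, 6.47, 6.42 and 6.56 in saline-morphine, 6.40, 6.68, 6.13 and 6.72 in saline-oxycodone, and 6.23, 6.84, 6.27 and 6.58 in saline-saline rats. The groups overlapped, and their means were at most 0.14 apart. Grk5 read 6.67, 6.41, 6.83 and 6.30 in vincristine-morphine, 5.89, 6.56, 6.60 and 6.67 in vincristine-oxycodone, and 6.40, 6.16, 6.49 and 6.81 in vincristine-saline rats. Among control rats Grk5 read 6.54, 6.97, 6.62 and 6.62 in saline-morphine, 6.48, 6.50, 6.85 and 6.32 in saline-oxycodone, and 6.30, 6.38, 6.71 and 6.43 in saline-saline rats. Vincristine-oxycodone 1, at 5.89, was followed by 6.56 as the next lowest array of its group, and morphine minus saline in control rats was 0.23 (SE 0.171; exact permutation p = 0.114, limma adjusted p = 1).

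Pde9a was the member with the largest share of variance that went with the treatment group, 43.7%. It hydrolyses cyclic GMP with high affinity and not cyclic AMP, so that it stands beside the cyclic AMP pathway within its family. Pde9a read 6.98, 7.02, 6.75 and 6.83 in vincristine-morphine, 6.72, 7.15, 6.87 and 7.06 in vincristine-oxycodone, and 7.15, 7.12, 7.05 and 7.26 in vincristine-saline rats. Among control rats Pde9a read 6.76, 6.91, 6.71 and 6.93 in saline-morphine, 6.78, 7.05, 7.15 and 7.13 in saline-oxycodone, and 7.10, 7.18, 6.97 and 6.97 in saline-saline rats. In both arms every morphine array lay below every saline array, while the oxycodone arrays overlapped both. Groups without overlap were found for 1.04% of all kept probes with morphine against saline in vincristine-treated rats, where Pde9a was 1 of 39 members, and for 1.24% in control rats, again with 1 of 39. Oxycodone against saline in control rats gave 0 of 39 without overlap (1.53%). Group means were 6.89 ± 0.127 in vincristine-morphine, 6.95 ± 0.194 in vincristine-oxycodone and 7.14 ± 0.0866 in vincristine-saline rats, and 6.83 ± 0.109, 7.03 ± 0.168 and 7.05 ± 0.103 in the corresponding control groups (SD, n = 4 each).

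Over both arms Pde9a was 0.17 lower after opioids than after saline (6.93 against 7.10; difference -0.17, SE 0.0603, 95% interval -0.30 to -0.05; limma adjusted p = 0.99), and lower in all 4 sets, at -0.34, -0.14, -0.07 and -0.15. A permutation test over 16 opioid-treated against 8 saline-treated rats gave p = 0.01, two-sided, and the set in the model gave a limma adjusted p = 0.307. Morphine minus saline was -0.25 in vincristine-treated rats (SE 0.0985; limma p = 0.0194, adjusted p = 1; exact permutation p = 0.0286) and -0.22 in control rats (SE 0.0985; limma p = 0.0338, adjusted p = 1; exact permutation p = 0.0286), and both exact values are the smallest this design allows. Oxycodone minus saline was -0.19 (SE 0.0985; exact permutation p = 0.2, limma adjusted p = 1) in vincristine-treated rats, where its unadjusted limma p fell under 0.05 (adjusted p = 1) with the set in the model, and -0.03 (SE 0.0985; exact permutation p = 0.857, limma adjusted p = 1) in control rats. The direct comparison of morphine with oxycodone gave -0.06 (SE 0.0985; exact permutation p = 0.6, limma adjusted p = 1) in vincristine-treated rats and -0.20 (SE 0.0985; exact permutation p = 0.114, limma adjusted p = 1) in control rats, and neither passed the adjusted threshold. In control rats this difference was -0.02, -0.14, -0.44 and -0.19 by set, lower with morphine in all 4, and its unadjusted limma p fell under 0.05 (adjusted p = 0.456) with the set in the model. Without the arrays high in muscle genes, opioids minus saline was -0.18, and morphine minus saline in vincristine-treated rats was -0.22 and no longer reached an unadjusted limma p of 0.05.

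**Figure D4:**
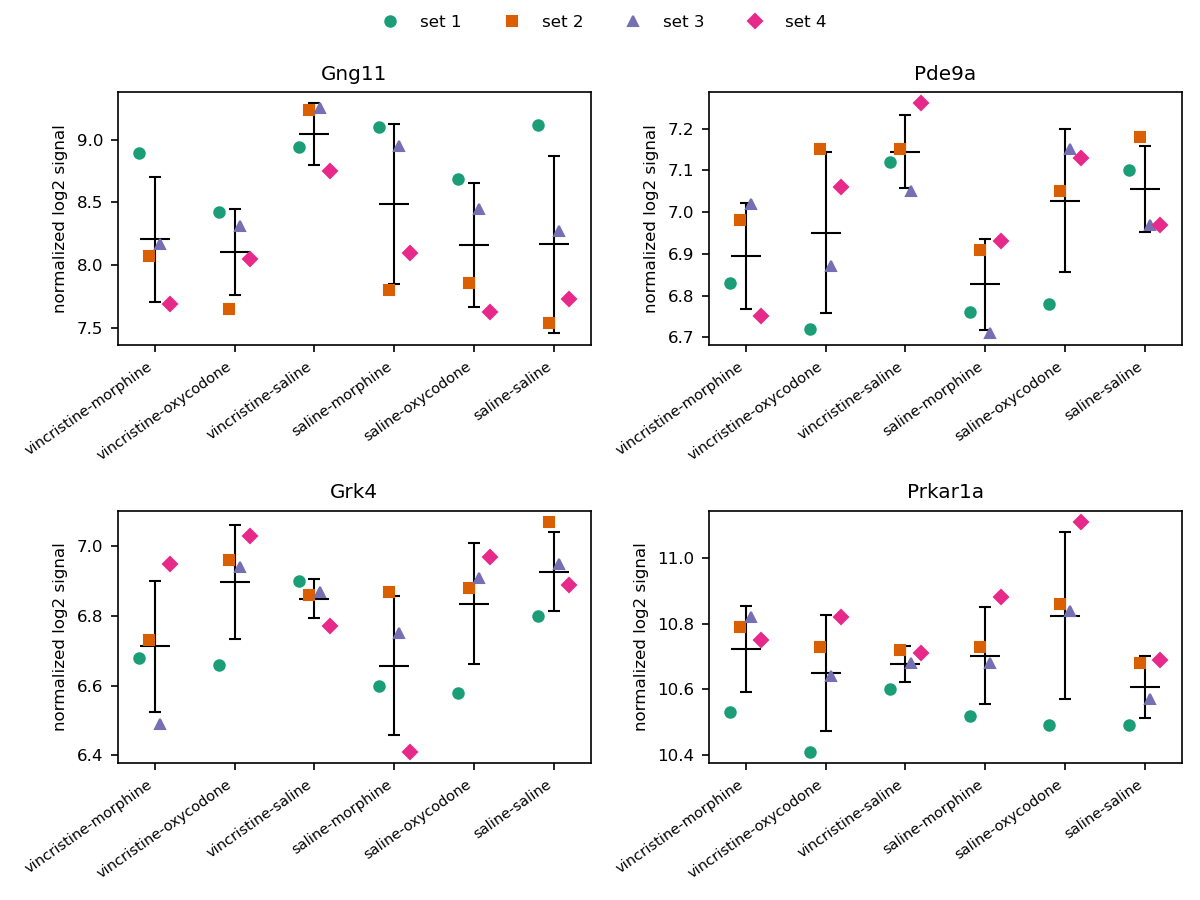
Normalized log2 signal (vertical axis, a separate scale for each gene) of Gng11, Pde9a, Grk4 and Prkar1a in the 24 rats by treatment group (horizontal axis), with colour and symbol for the set of arrays and black bars for the group mean and SD (n = 4). Gng11 was at 8.75 or above in all 4 vincristine-saline rats, Pde9a lay lower in all morphine-treated rats than in the saline-treated rats of the same arm, and Prkar1a was lowest in set 1 in every group.

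The other kept members of the phosphodiesterase family showed no difference from saline at an unadjusted p under 0.05. Pde10a, a phosphodiesterase of cyclic AMP and cyclic GMP best known from the striatum, read 7.42, 7.64, 7.98 and 8.08 in vincristine-morphine, 7.69, 7.66, 7.22 and 8.35 in vincristine-oxycodone, and 8.03, 7.59, 7.05 and 7.45 in vincristine-saline rats. Among control rats Pde10a read 7.50, 7.86, 7.65 and 7.79 in saline-morphine, 7.52, 8.09, 7.85 and 7.87 in saline-oxycodone, and 7.76, 8.04, 7.69 and 7.91 in saline-saline rats. Its within-group SD of 0.311 was second to that of Gng11, and both the highest and the second lowest value were vincristine-oxycodone rats. Pde2a, which is stimulated by cyclic GMP and breaks down both nucleotides, read 8.33, 8.47, 8.74 and 8.11 in vincristine-morphine, 8.20, 8.59, 8.17 and 8.42 in vincristine-oxycodone, and 8.76, 8.28, 8.45 and 8.30 in vincristine-saline rats. Among control rats Pde2a read 8.46, 8.56, 8.43 and 8.60 in saline-morphine, 8.13, 8.64, 8.44 and 8.66 in saline-oxycodone, and 8.12, 8.82, 8.19 and 8.45 in saline-saline rats. Set 1 read low and set 2 high, with set means of 8.22 and 8.62, and the group means were at most 0.17 apart. Pde7a, specific for cyclic AMP, read 7.07, 6.92, 7.08 and 6.91 in vincristine-morphine, 6.74, 7.16, 6.97 and 6.94 in vincristine-oxycodone, and 7.30, 7.08, 6.86 and 7.01 in vincristine-saline rats. Among control rats Pde7a read 7.01, 7.38, 6.84 and 6.69 in saline-morphine, 6.84, 7.15, 6.82 and 6.79 in saline-oxycodone, and 6.96, 7.19, 6.88 and 7.10 in saline-saline rats. Opioids minus saline was -0.09 (SE 0.0786; permutation p = 0.222, limma adjusted p = 1). Pde6d, which carries the family's name but binds prenylated proteins, ranged from 9.54 to 9.87 with group means at most 0.07 apart.

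Protein kinase A, the main effector of cyclic AMP, consists of catalytic subunits held inactive by regulatory subunits. Prkar1a, a regulatory subunit of the RI type, read 10.79, 10.82, 10.75 and 10.53 in vincristine-morphine, 10.41, 10.73, 10.64 and 10.82 in vincristine-oxycodone, and 10.72, 10.60, 10.68 and 10.71 in vincristine-saline rats. Among control rats Prkar1a read 10.52, 10.73, 10.68 and 10.88 in saline-morphine, 10.49, 10.86, 10.84 and 11.11 in saline-oxycodone, and 10.49, 10.68, 10.57 and 10.69 in saline-saline rats. Set 1 was the lowest in every group, and a saline-oxycodone rat held the highest value. Oxycodone minus saline in control rats was 0.22 (SE 0.111; exact permutation p = 0.171, limma adjusted p = 1), and its unadjusted limma p fell under 0.05 (adjusted p = 0.442) with the set in the model. By set it was 0.00, 0.19, 0.27 and 0.43. In vincristine-treated rats the same difference was -0.03 (SE 0.111; limma adjusted p = 1). Over both arms opioids minus saline was 0.08 (SE 0.0677; permutation p = 0.219, limma adjusted p = 1), higher in 3 of 4 sets, and its unadjusted limma p fell under 0.05 (adjusted p = 0.693) with the set in the model. The interaction of vincristine and opioid was 0.20 (SE 0.156; limma adjusted p = 1), at 0.10, 0.19, 0.34 and 0.17 by set, and its unadjusted limma p fell under 0.05 (adjusted p = 0.554) in that model.

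Prkaca, a catalytic subunit, read 10.49, 10.41, 10.75 and 10.73 in vincristine-morphine, 10.74, 10.36, 10.69 and 10.73 in vincristine-oxycodone, and 10.58, 10.81, 10.61 and 10.85 in vincristine-saline rats. Among control rats Prkaca read 10.85, 10.39, 10.78 and 10.77 in saline-morphine, 10.78, 10.45, 10.36 and 10.41 in saline-oxycodone, and 10.64, 10.43, 10.68 and 10.69 in saline-saline rats. Morphine minus oxycodone was 0.20 (SE 0.119; exact permutation p = 0.286, limma adjusted p = 1) in control rats, with 3 of 4 sets higher, and its unadjusted limma p fell under 0.05 (adjusted p = 0.439) with the set in the model. In vincristine-treated rats it was -0.04 (SE 0.119; exact permutation p = 0.971, limma adjusted p = 1). Prkar2b read 9.75, 9.84, 9.51 and 10.09 in vincristine-morphine, 10.05, 9.97, 9.71 and 9.50 in vincristine-oxycodone, and 9.74, 10.06, 9.72 and 9.53 in vincristine-saline rats. Among control rats Prkar2b read 10.12, 9.67, 9.82 and 9.59 in saline-morphine, 10.27, 9.65, 9.87 and 9.66 in saline-oxycodone, and 10.14, 9.83, 9.74 and 9.61 in saline-saline rats. Set 1 held the 6 highest values, 1 in each group, and the spread over sets exceeded the largest difference between group means, 0.10. Prkacb, the other kept catalytic subunit, ranged from 11.90 to 12.24 with group means at most 0.09 apart.

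Over both arms together, the 5 kept A-kinase anchoring proteins all had lower means with opioids than with saline, by 0.01 to 0.09, also after median centring. Their median was -0.024, against -0.0024 over all kept probes, of which 3639 of 7043 were lower. An unadjusted p of 0.05 was passed by 0 of 5, and by 2.9% of all kept probes. Each opioid by itself gave mixed directions within an arm. In vincristine-treated rats 3 of 5 were lower after morphine and 4 of 5 after oxycodone, and in control rats 3 of 5 and 2 of 5. Akap6, which anchors the kinase at the nuclear envelope, read 6.87, 7.12, 6.66 and 6.74 in vincristine-morphine, 6.60, 7.13, 6.47 and 7.02 in vincristine-oxycodone, and 7.23, 6.97, 6.84 and 6.92 in vincristine-saline rats. Among control rats Akap6 read 6.85, 6.84, 6.79 and 6.81 in saline-morphine, 6.92, 6.93, 6.89 and 7.28 in saline-oxycodone, and 6.77, 7.08, 6.98 and 6.91 in saline-saline rats. In control rats every morphine array lay below every oxycodone array, with a difference of -0.18 (SE 0.134; exact permutation p = 0.0286, limma adjusted p = 1), and in vincristine-treated rats it was 0.04 (SE 0.134; limma adjusted p = 1). Akap6 was thus 1 of 39 members without overlap between morphine and oxycodone in control rats, where this held for 1.58% of all kept probes, and in vincristine-treated rats it held for 0 of 39 (0.625%).

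Akap12, a scaffold at the plasma membrane, read 8.87, 9.11, 8.57 and 8.86 in vincristine-morphine, 8.72, 8.55, 8.91 and 8.70 in vincristine-oxycodone, and 8.80, 8.94, 9.03 and 8.79 in vincristine-saline rats. Among control rats Akap12 read 9.13, 8.62, 8.87 and 8.86 in saline-morphine, 9.01, 8.70, 8.82 and 8.63 in saline-oxycodone, and 9.06, 8.87, 8.86 and 8.55 in saline-saline rats. Oxycodone minus saline in vincristine-treated rats was -0.17 (SE 0.127; exact permutation p = 0.143, limma adjusted p = 1). Akap8, a nuclear anchor, read 8.44, 8.47, 8.65 and 8.53 in vincristine-morphine, 8.64, 8.39, 8.47 and 8.59 in vincristine-oxycodone, and 8.47, 8.72, 8.39 and 8.52 in vincristine-saline rats. Among control rats Akap8 read 8.55, 8.47, 8.49 and 8.19 in saline-morphine, 8.72, 8.45, 8.60 and 8.44 in saline-oxycodone, and 8.57, 8.40, 8.57 and 8.60 in saline-saline rats. The lowest value was saline-morphine 4, an array high in muscle genes, and morphine minus oxycodone in control rats was -0.13 (SE 0.0911; exact permutation p = 0.314, limma adjusted p = 1). Akap17a, whose window with the full element is shown above, read 7.62, 7.79, 7.53 and 7.70 in vincristine-morphine, 7.77, 7.55, 7.97 and 7.63 in vincristine-oxycodone, and 7.82, 7.94, 7.79 and 7.34 in vincristine-saline rats. Among control rats Akap17a read 7.98, 7.88, 7.86 and 7.70 in saline-morphine, 7.81, 7.83, 7.57 and 7.71 in saline-oxycodone, and 7.77, 7.92, 7.86 and 7.61 in saline-saline rats. Vincristine minus control was -0.09 (SE 0.0663; permutation p = 0.185, limma adjusted p = 1). Akap9, an anchor of the Golgi and centrosome with 1 of 3 probes kept, ranged from 8.38 to 9.22 with group means at most 0.21 apart.

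Since no member passed the threshold for morphine against oxycodone, the size of difference that the data leave room for was read from the 95% intervals. In vincristine-treated rats the differences ran from -0.19 (Grk4) to 0.13 (Akap12), and the interval lay within 0.5 either side of 0 for 38 of 39 members and within 0.25 for 13. In control rats they ran from -0.20 (Pde9a) to 0.33 (Gng11), with 36 of 39 intervals within 0.5 and 9 within 0.25. The median size of the difference was 0.044 in vincristine-treated and 0.079 in control rats, against 0.052 and 0.075 over all kept probes, and the median SE was 0.111 in both. For vincristine against control, which rests on 12 rats in each arm, the median SE was 0.0641, and 38 of 39 intervals lay within 0.5 and 33 within 0.25. Differences of 0.25 between the opioids were therefore not excluded for most members by these intervals, which come from the fit without the set. With the set in the model the median SE for morphine against oxycodone was 0.0802 in both arms. In that model 38 of 39 intervals lay within 0.5 in vincristine-treated and 37 of 39 in control rats, and intervals within 0.25 were not counted.

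**Figure D5:**
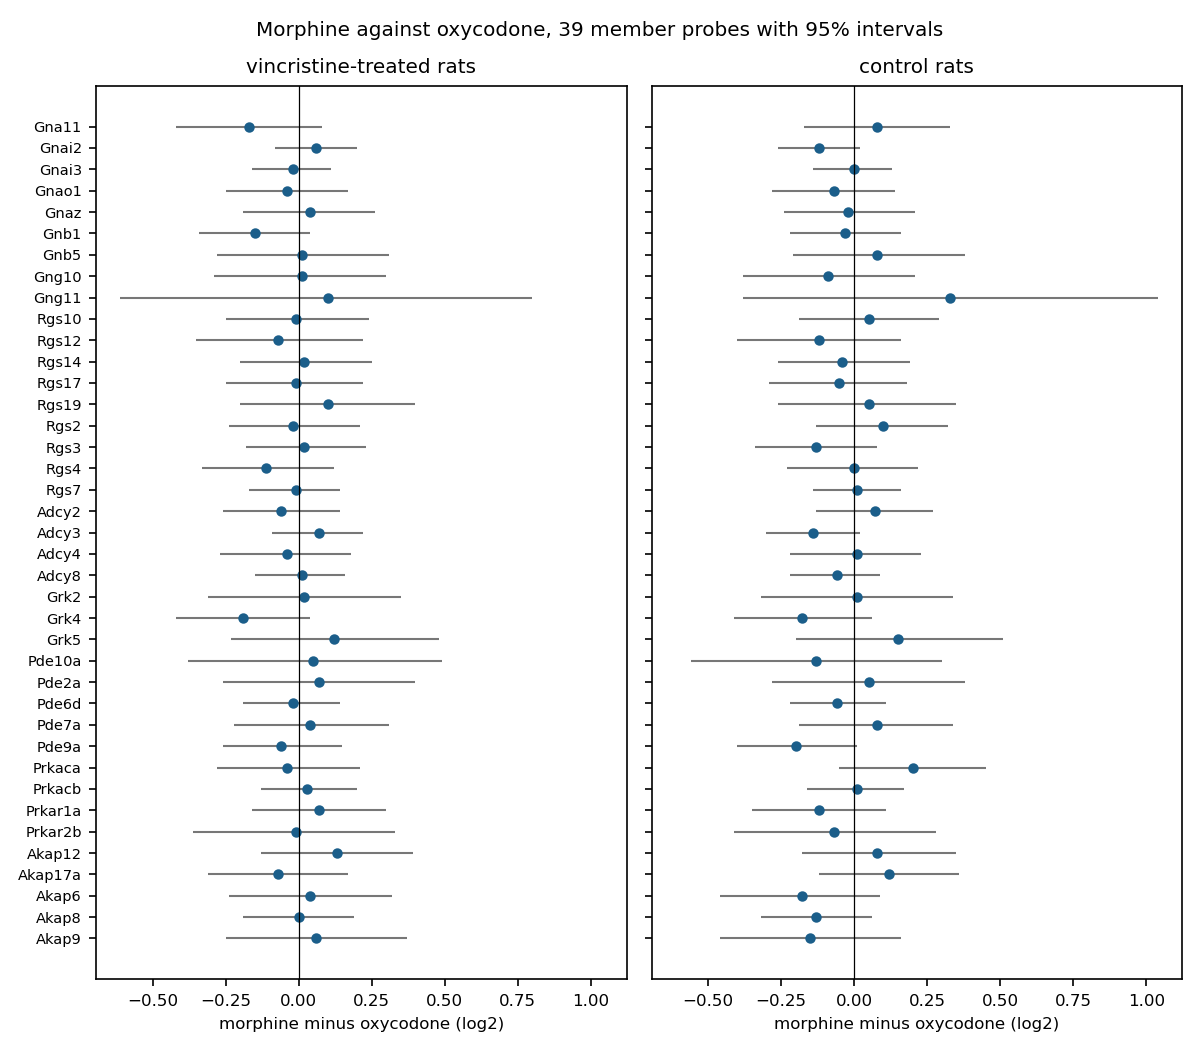
Morphine minus oxycodone on the log2 scale (horizontal axis) for the 39 kept member probes by family (vertical axis), in vincristine-treated rats (left) and control rats (right), with points for the difference of the means of 4 rats each and lines for the 95% interval of the limma fit without the set. Within 0.5 on either side of 0 lie 38 of 39 intervals on the left and 36 of 39 on the right, every one includes 0, and those of Gng11 are the widest.

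The members shared no common direction. Of 39, 19 were higher and 20 lower with vincristine than in control rats (median -0.0085), 21 were higher and 18 lower with morphine than with oxycodone in vincristine-treated rats (median 0.0052), and 17 were higher and 22 lower in control rats (median -0.015). Centring each array on its median in place of quantile normalization moved the median of all kept probes by 0.19 in the latter comparison, and the members moved with it, with 38 of 39 higher and a median of 0.16, so these directions are relative to the other probes. With opioids against saline, 15 were higher and 24 lower (median -0.019, against -0.0024 over all kept probes).

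Among the receptors, Gabbr2, the subunit of the GABA-B receptor that engages the G protein, was -0.19 (SE 0.0937; limma adjusted p = 1) for morphine minus oxycodone in vincristine-treated rats and 0.00 (SE 0.0937; limma adjusted p = 1) in control rats. Gabbr1, which binds GABA, gave -0.07 (SE 0.113; limma adjusted p = 1) and Oprl1 0.00 (SE 0.148; limma adjusted p = 1) in the former arm.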

How the data were processed

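RNA was extracted from individual lumbar DRG and hybridised to Illumina RatRef-12 arrays, and each of the 24 arrays was assigned to its group by the sample labels. The authors deposited bead summary signal intensities on a linear scale with detection p-values for 22517 probes, and in a separate table log2 values that are quantile-normalized. According to the methods, spots were excluded above a detection limit of 0.05%, factors were tested by ANOVA, morphine and oxycodone by Student's test, and p-values were left unadjusted. The scanner software is not named in these sources. Gene symbols came from the platform annotation, updated for 13752 of 13787 probes with an assigned gene and left as annotated for 35.

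Signal intensities were corrected for background and quantile-normalized with neqc of limma 3.58.1 (R 4.3.3, with version 1.17.8 of data.table), which inferred negative controls from the detection p-values. Kept were the 7043 probes detected at 0.0005 or less on 4 or more arrays. The linear model (lmFit, eBayes) held 6 group means over 24 arrays, with 18 residual degrees of freedom, or 15 with the set added, and the Benjamini-Hochberg adjustment at 0.05 was made within each comparison over all kept probes. Single probes were tested in addition by exact permutation, two-sided, over 70 regroupings of 4 against 4 rats, or by 100000 resamples for larger groups. The fit was first tested on simulated data.

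The members follow from a rule on gene symbols alone, but members, gene lists and tests were chosen with earlier results of these data known. Values on every array are given for up to 6 members with the smallest p in each comparison, up to 6 with the largest within-group SD, and the kept members of the study's supplementary gene list (Gnai3). Alternatives comprised 3 other scalings (quantile without background correction, centring on the median, and the log2 values of the authors), detection on all arrays or no filter, the set or the replicate number as a block, a fit to the compared groups alone, a robust variance with intensity trend, the methods' t-test, and each array left out. Leaving out the arrays high in muscle genes, the comparison of vincristine-saline with saline-saline rats and its interaction were chosen after seeing the data. Promoter windows came from RefSeq (GRCr8).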

Additional observations from a re-analysis of the deposited data

Results flagged for a closer look

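Of 54 groups of 4 arrays examined, the 6 groups of each of 9 members (those at an unadjusted p under 0.05, those with the largest within-group SD, and Gnai3), 1 held an array far from the others by Dixon's criterion. Chance alone would give this in about 1 of 20 groups, a rate that does not carry over to members partly chosen for their large within-group SD. Grk5 in the rat vincristine-oxycodone 1 read 5.89 against 6.56 in the next lowest array of its group, a gap of 0.851 of the range of the group. The Grk5 probe was detected on 15 of the 24 arrays and on 3 of the 4 arrays of this group. This array also belonged to set 1, where Grk5 read lowest, with a set mean of 6.28 against 6.58 to 6.61 in the others.

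Gng11 differed in its response to opioids between vincristine-treated and control rats at an unadjusted threshold. The interaction, tested in the limma fit after the values had been seen, was -1.05 (SE 0.415; limma adjusted p = 1), at -0.06, -1.67, -1.45 and -1.02 in sets 1 to 4. The difference no longer reached an unadjusted limma p of 0.05 without the arrays high in muscle genes (-0.99), without saline-saline 2 (-0.84) or without saline-saline 4 (-0.90).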

How the results depend on the processing

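No member passed the adjusted threshold in any of the 11 comparisons under any alternative, and no difference given for Gng11, Pde9a or Grk4 at an unadjusted p under 0.05 changed sign. Counts of members at an unadjusted p under 0.05 did vary, and so did the share of all probes tested at that threshold. In the order vincristine against control, morphine against oxycodone in each arm (vincristine-treated, then control), and their interaction, they were 0, 0, 0 and 0 under the design used, 3, 2, 5 and 5 of 108 probes without a detection filter, 4, 1, 3 and 3 with the set as a block, and 1, 0, 0 and 1 with the methods' t-test. For opioids against saline the count was 1, and 0 with median centring, 2 without a filter and 4 with the set as a block. For morphine and for oxycodone against saline in vincristine-treated rats the counts were 2 and 1, with 1 for morphine after median centring, 3 for oxycodone without a filter and 2 with the set as a block. In control rats the counts against saline were 2 and 0, with 0 for morphine after median centring, 1 for detection on all arrays, 1 with the methods' t-test, and 3 for oxycodone without a filter and 2 with the set as a block. For vincristine-saline against saline-saline rats the count was 1, with 6 without a filter and 0 with the methods' t-test, and for the interaction of vincristine with opioids against saline it was 1, with 3 without a filter. With the arrays high in muscle genes left out, the counts were 1 for the interaction of vincristine and opioid, 2 for opioids against saline, 1 for morphine against saline in control rats and 0 for the interaction of vincristine with opioids against saline. Over the 11 comparisons the share of all probes at this threshold ran from 0.753% to 3.81% under the design used, 2.43% to 4.01% without a filter (3.02% beside the 6 of 108), 2.58% to 10% with the set as a block, 0.88% to 3.34% with the methods' t-test, 0.17% to 1.92% with median centring, 0.628% to 4.07% for detection on all arrays, and 1.09% to 3.9% after the muscle-high arrays were dropped. The cause of these shifts was not tested.

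Leaving out 1 array at a time gave 0 to 2 members for vincristine against control, 0 to 1 and 0 to 6 for morphine against oxycodone in vincristine-treated and control rats, 0 to 2 for their interaction, 1 to 2 for opioids against saline, 0 to 2 and 1 to 3 for morphine and oxycodone against saline in vincristine-treated rats, 0 to 2 for each in control rats, 0 to 2 for vincristine-saline against saline-saline rats and 0 to 1 for the last interaction. The 6 of 39 arose without saline-oxycodone 1, where 7.95% of all probes reached the same threshold. Over all arrays left out and all comparisons this share ran from 0.696% to 7.95%. Gng11 after morphine in vincristine-treated rats no longer reached an unadjusted p of 0.05 without vincristine-morphine 3 (-0.67), vincristine-saline 1 (-0.78) or vincristine-saline 3 (-0.77), while oxycodone minus saline stayed between -1.04 and -0.78 under all alternatives. Vincristine-saline minus saline-saline for Gng11 was 0.67 without saline-saline 2 and 0.74 without saline-saline 4, and in neither case reached an unadjusted p of 0.05. Median centring gave -0.12 for Pde9a with morphine in control rats and -0.18 for Grk4, and neither then reached an unadjusted p of 0.05. Nor did Pde9a with morphine in vincristine-treated rats (-0.30) or with opioids over both arms (-0.19). Leaving out saline-morphine 1 or 3 or saline-saline 1 or 2 had the same outcome for Pde9a with morphine in control rats (-0.21 to -0.18). In vincristine-treated rats vincristine-morphine 3 (-0.20) or vincristine-saline 4 (-0.21) did so. For Grk4 it was saline-morphine 1 (-0.25) or 4 (-0.18) or saline-saline 2 (-0.22).

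Replicate numbers in the labels did not pair the arrays: deviations of same-numbered arrays had a mean correlation of 0.0447, with 30 of 60 pairs above 0.1, against 0.412 and 53 of 60 within sets. These figures overlap, since 33 pairs shared both the replicate number and the set. With the replicate number as a block the counts of members at an unadjusted p under 0.05 were 1, 1, 1 and 1 for the first 4 comparisons above, 3 for opioids against saline, and 2 for oxycodone against saline in either arm, beside 2.92%, 0.88%, 4.02%, 3.11%, 3.08%, 1.7% and 2.87% of all probes.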

Other observations

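Genes that cyclic AMP induces in many cells, taken from a list made with earlier results of these data known, had a kept probe for 9 of 18 probes, and 0 of 9 passed the adjusted limma threshold in any comparison. At an unadjusted p under 0.05 the list gave 1 of 9 for vincristine against control (2.77% of all probes), 1 of 9 for morphine against oxycodone in control rats (3.81%), 2 of 9 for opioids against saline (2.9%), 1 of 9 for morphine (2.09%) and for oxycodone (2.67%) against saline in control rats, 1 of 9 for vincristine-saline against saline-saline rats (1.77%) and 1 of 9 for the interaction of vincristine with opioids against saline (0.909%), and 0 of 9 in the other 4 comparisons. Per1, a clock gene with cyclic AMP response elements, was 0.56 higher in vincristine-treated than in control rats (SE 0.179; limma adjusted p = 0.736). Dusp1, a phosphatase of mitogen-activated kinases, was 0.19 higher after opioids than after saline (SE 0.0637; limma adjusted p = 0.91). By arm the difference was 0.30 for morphine and 0.26 for oxycodone in control rats, and 0.03 and 0.17 in vincristine-treated rats. Crem, a transcription factor that binds cyclic AMP response elements, was 0.11 higher after opioids than after saline (SE 0.0538; limma adjusted p = 1). Sik1, a kinase of the salt-inducible family, was 0.23 higher in vincristine-saline than in saline-saline rats (SE 0.0799; limma adjusted p = 1), with an interaction of -0.21 (SE 0.0979; limma adjusted p = 1). Klf4, a zinc finger transcription factor, was 0.44 higher after morphine than after oxycodone in control rats (SE 0.187; limma adjusted p = 1).

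Among cyclic AMP effectors and inhibitors of protein kinase A, 10 of 20 probes were kept. Rapgef3, a cyclic AMP-activated exchange factor for Rap proteins, was 0.15 higher after opioids than after saline (SE 0.0679; limma adjusted p = 1) and 0.26 higher after morphine than after saline in vincristine-treated rats (SE 0.111; limma adjusted p = 1), and Rap1gap, which switches Rap off, was 0.15 lower after morphine than after oxycodone in vincristine-treated rats (difference -0.15, SE 0.0705; limma adjusted p = 1). Of regulators of G proteins outside the families, 7 of 15 probes were kept, and Rasd1, a small G protein of the Ras family, was 0.14 higher in vincristine-treated than in control rats (SE 0.0663; limma adjusted p = 1). The list of ion channels and phospholipases had a kept probe for 5 of 12 probes (Cacna2d1, Plcb1, Plcb3, Scn10a and Trpv1), with none for the potassium channels Kcnj3, Kcnj5 and Kcnj9 and the calcium channels Cacna1a and Cacna1b, and 0 of 5 reached an unadjusted limma p of 0.05 in any comparison.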
